A study of Homo sapiens with 6 samples.

Results

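The mRNAs of the 37 aminoacyl-tRNA synthetases were examined for clusters of IGF2BP3 crosslinks, 20 of them encoding the enzymes of the cytosol and 17 those of the mitochondrion. The members were the protein-coding genes of GENCODE release 44 with a symbol of the synthetase pattern, a letter for the amino acid followed by ARS1 or ARS2, together with EPRS1, FARSA and FARSB, and they were 37 of 20046 protein-coding genes. The choice followed gene symbols and used no measured value, but earlier results of these data were known when it was made. Enzymes ending in 2 were taken as mitochondrial and all others as cytosolic. GARS1 and KARS1, whose genes each encode both a cytosolic and a mitochondrial form, were counted with the cytosolic enzymes.

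Aminoacyl-tRNA synthetases join each amino acid to its tRNA and thereby set the supply of charged tRNA for the ribosome. Human cells use separate sets for translation in the cytosol and in the mitochondrion, almost all encoded in the nucleus by different genes, and several of the cytosolic enzymes assemble into the multisynthetase complex. IGF2BP3 is an oncofetal protein that binds mRNA, mostly in 3′UTRs, and is known for effects on the stability and translation of its targets. Because the mitochondrial enzymes are also made from cytosolic mRNAs, both sets can meet IGF2BP3.

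The study compared nucleases in infrared PAR-CLIP of the endogenous protein. HCT116 cells, a human colorectal carcinoma line carrying the Tet-OsTIR1-PURO genotype, received 4-thiouridine at 100 µM for 15 h before UV light at 365 nm, and crosslinked positions are read as T-to-C conversions. The 5 libraries made with the IGF2BP3 antibody differed in the nuclease, given here as in-lysate/on-beads concentration in U/µL: RNase I at 0.1/0.025, 0.05/0.05 and 0.05/0.025, and RNase T1, which cuts after G, at 1/1 and 0.25/0.25. One more library was made with a control IgG and RNase I at 0.1/0.025. Each condition had 1 library and no replicate, so no difference between conditions was tested, and the 95% intervals given below cover counting error alone. RNA was electroeluted from the gel for RNase I 0.05/0.05 and RNase T1 1/1 and taken from crushed gel for the other IGF2BP3 libraries, so between libraries that differ in both, gel extraction and concentration cannot be told apart. The antibody cross-reacts partially with the paralog IGF2BP2, as the study states, and the level of each mRNA in the cells was not measured here, so a high cluster count and an abundant mRNA cannot be told apart.

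Cluster reads summed to between 182448 and 2362467 in the IGF2BP3 libraries and to 324 in the IgG library. A value in CPM is the number of reads in a gene's clusters scaled to counts per 1e+06 cluster reads of the same library. CPM per kb divides it by the length of the gene's canonical transcript and is the main scale used to compare genes. The correlation with 3′UTR length and the intronic rank of SARS1 used CPM without this division. A gene counted as a target in a library if it held a cluster above 10 CPM with over 0.5 conversion events per read. The limit of 10 CPM corresponded to 1.82 reads with RNase T1 0.25/0.25 and to 23.6 reads with RNase I 0.05/0.05. The IgG library had 0 clusters on the 37 mRNAs.

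Over the 5 IGF2BP3 libraries, 450 clusters lay in exons of the synthetases, all identical in sequence to GRCh38 and none in an exon shared with another gene. At least 1 cluster was found on 32 of the 37 mRNAs, against 46.7% of all protein-coding genes. The 5 without a cluster in any library were CARS1, VARS1, FARS2, SARS2 and VARS2, which charge tRNA with cysteine, valine, phenylalanine, serine and valine. Targets in at least 3 libraries were 11 of the 37, or 29.7%, against 19.9% of all protein-coding genes and 42.6% of those with a cluster in any library. The share of the whole family lay between these backgrounds. Targets in at least 1 library were 21 of the 37, against 29.5% of all protein-coding genes.

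Of the 20 cytosolic enzymes, 10 were targets in at least 3 libraries, among them NARS1, KARS1, YARS1, WARS1, FARSB, IARS1, AARS1, GARS1 and SARS1. Of the 17 mitochondrial enzymes, 1 was, EARS2. The shares were 50.0% and 5.88%, with the background of 19.9% between them. Requiring at least 20 reads in the cluster left 5 cytosolic and 0 mitochondrial enzymes, at a background of 11.4%, and a limit of 5 CPM gave 14 and 4, at 26.7%. In single libraries, 11, 12 and 12 cytosolic enzymes were targets with RNase I 0.1/0.025, 0.05/0.05 and 0.05/0.025, in which 21.3%, 21.9% and 22% of all protein-coding genes were called. With RNase T1 1/1 there were 8, at a background of 19.6%, and with RNase T1 0.25/0.25 there were 5, at 13.7%. The mitochondrial enzymes gave 1, 3, 2, 6 and 1 targets in the same order. The 6 with RNase T1 1/1, EARS2, IARS2, MARS2, NARS2, WARS2 and YARS2, were 35.3% of the mitochondrial enzymes against 40% of the cytosolic ones, so in this library the sets were closest.

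The cytosolic enzymes had a median of 7.04 CPM per kb, averaged over the 5 libraries, and the mitochondrial enzymes 2.39, a ratio of 2.95. The ratio was 5.25 per kb of all merged exons and 15.4 for 3′UTR clusters per kb of 3′UTR. It was 2.62 without GARS1 and KARS1, and 2.22 to 3.81 when 1 library was left out. All 37 had a median of 3.37, and 72.3% of all protein-coding genes lay below it. The median of the 9353 protein-coding genes with a cluster in any library was 5.77, while over all 20046 genes it was 0. The mitochondrial 3′UTRs were the longer ones, with a median of 705 nt against 326 nt. Both were below the median of the protein-coding genes with a cluster, 1579 nt. Within each set, genes with longer 3′UTRs had more CPM, which is not divided by transcript length. The Spearman correlation across genes was 0.54 for the 20 cytosolic and 0.54 for the 17 mitochondrial enzymes. These are descriptions across genes, measured in the same libraries, and genes are not replicates.

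**Figure D1:**
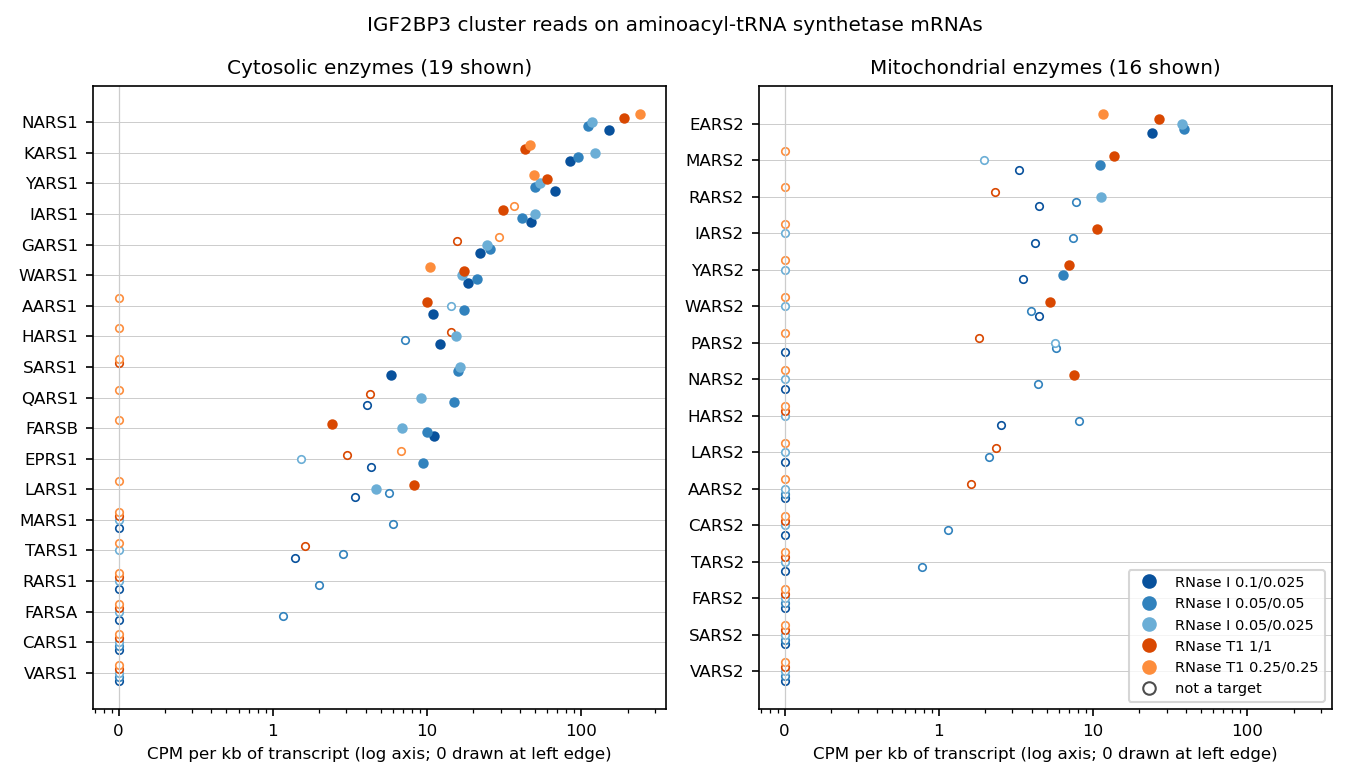
CPM per kb of canonical transcript (horizontal log axis, 0 drawn at the left edge) for 19 cytosolic and 16 mitochondrial enzymes, with 1 point per IGF2BP3 library, filled where the gene was a target. NARS1 is the highest enzyme in 4 libraries and KARS1 with RNase I 0.05/0.025, EARS2 is the highest mitochondrial enzyme in all 5, and most other mitochondrial enzymes have points at 0.

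The members NARS1, KARS1, YARS1, WARS1 and EARS2 were targets in all 5 libraries, as were 9.91% of all protein-coding genes. The sequences at the summits of their largest clusters with RNase I 0.05/0.05 and RNase T1 1/1 are shown to let the footprints of the nucleases be compared on the same mRNA, and IARS1 is added as a member whose level was lower with both RNase T1 libraries. Each is at most 30 nt around the mode of the cluster, 5′ to 3′ on the mRNA strand, with the tetramers CATT and CAGT, searched on that strand alone, in capitals.
NARS1, RNase I 0.05/0.05: acaaagttcggggaaaatacctggcatgaa
NARS1, RNase T1 1/1: CATTttattcaagttatatgtatgtataat
YARS1, RNase I 0.05/0.05: gcaCAGTggaagcaaaccaacttcatgacc
YARS1, RNase T1 1/1: aaatctggtttcaatataactCATTtaaaa
WARS1, RNase I 0.05/0.05: agaagtgatgtatCAGTaatgtatcaataa
WARS1, RNase T1 1/1: gttcCATTatttctatctcttatgggcaaa
KARS1, RNase I 0.05/0.05: tgttaccaaataagcCATTtgtctcttctc
KARS1, RNase T1 1/1: gcctttcatcacttatcacaacg
EARS2, RNase I 0.05/0.05: gaatagcaagtgaaaggaggatggtggcag
EARS2, RNase T1 1/1: gaaatgagatatgcttcttggggtcttcag
IARS1, RNase I 0.05/0.05: ggtgtgtgtaaaatatgctgcttggattga
IARS1, RNase T1 1/1: gcccttccctaattacacctatcccctaca

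On none of these 6 mRNAs did the windows of the nucleases overlap, but a window shows only part of a longer cluster. On NARS1, EARS2 and IARS1 the RNase T1 1/1 cluster lay within the RNase I 0.05/0.05 cluster. On KARS1, YARS1 and WARS1 these largest clusters did not overlap. Among all windows of 30 nt at the modes of clusters in protein-coding exons, 17.3% held CATT and 15.9% CAGT with RNase I 0.05/0.05, and 26.9% and 11.1% with RNase T1 1/1. In genome coordinates of GRCh38, all on the minus strand, the NARS1 windows were chr18:57601403-57601432 and chr18:57601322-57601351, both in the 3′UTR. The YARS1 windows were chr1:32776032-32776061, with its mode in the coding sequence, and chr1:32775685-32775714 in the 3′UTR. The WARS1 windows, chr14:100334820-100334849 and chr14:100334682-100334711, lay in the 3′UTR, as did those of EARS2, chr16:23523234-23523263 and chr16:23523271-23523300, and of IARS1, chr9:92210670-92210699 and chr9:92210750-92210779. The KARS1 windows were chr16:75627707-75627736, with its mode in an exon of another isoform just past the canonical 3′ end, and chr16:75634223-75634245 in the coding sequence.

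NARS1, which charges asparagine tRNA, had the highest mean level of the members. It had 416 CPM with RNase I 0.1/0.025, 306 with 0.05/0.05 and 327 with 0.05/0.025, and 519 with RNase T1 1/1 and 663 with RNase T1 0.25/0.25. Both RNase T1 libraries were above all RNase I libraries, and the counting intervals of RNase T1 1/1, 479 to 563 CPM, and of the highest RNase I library, 372 to 463 CPM, did not overlap. Its mean of 162 CPM per kb placed it at rank 367 of the 20046 genes. In the 3′UTR, 2 stretches held clusters from all 5 libraries, chr18:57601053-57601582 with 1538 reads and chr18:57600673-57600866 with 385, and 99.0% of the NARS1 reads lay in clusters that touched the 3′UTR. Its mitochondrial counterpart NARS2 had 0, 4.38, 0, 7.57 and 0 CPM per kb in the order of libraries above, against 151, 111, 118, 188 and 240 for NARS1.

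YARS1, the tyrosine enzyme, varied least of the members with reads in all 5 libraries. Its values were 166, 122 and 133 CPM with RNase I in the same order and 146 and 121 with RNase T1. The nucleases overlapped. Clusters covered 92.3% of its 745 nt 3′UTR with RNase I 0.05/0.05 and 39.1% with RNase T1 1/1. WARS1, the tryptophan enzyme, had 48.5, 55.5 and 44.7 CPM with RNase I and 45.8 and 27.4 with RNase T1. Its RNase T1 0.25/0.25 value rested on 5 reads.

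IARS1, the isoleucine enzyme, had 213, 185 and 225 CPM with RNase I and 140.0 and 164 with RNase T1, so that both RNase T1 values lay below the RNase I values. The counting interval of RNase T1 1/1, 119 to 163 CPM, lay below that of RNase I 0.05/0.05, 168 to 203 CPM. That of RNase T1 0.25/0.25, from 30 reads, was 111 to 235 CPM and spanned all the RNase I values. IARS1 was a target in 4 libraries and missed the call with RNase T1 0.25/0.25, where its largest cluster had 121 CPM but 0.41 conversion events per read.

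Targets in all 3 RNase I libraries were 10 members, 9 cytosolic ones and EARS2, against 16.6% of all protein-coding genes, and targets in both RNase T1 libraries were 5, against 11.4%. GARS1, the glycine enzyme, and SARS1, the serine enzyme, were the members called in all 3 RNase I libraries and in neither RNase T1 library. Of all protein-coding genes, 2.17% had this pattern, and 0.244% had the reverse, which no member did. The 2 genes reached it differently. GARS1 had 53.5, 62.2 and 59.6 CPM with RNase I and 38.0 and 71.3 with RNase T1, and its RNase T1 clusters had 0.36 and 0.29 conversion events per read at their largest. SARS1 had 11.2, 30.5 and 31.3 CPM in exons with RNase I and 0 with RNase T1. Its value of 11.2 CPM rested on 9 reads, where 10 CPM corresponded to 8.03 reads.

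With RNase T1 1/1, 3 cytosolic members, GARS1 and HARS1 among them, had a cluster above 10 CPM but none that also passed the conversion limit, and with RNase T1 0.25/0.25 there were 3 cytosolic and 1 mitochondrial members of this kind. In the RNase I libraries there was 1 in all, AARS1 with 0.05/0.025. Pooled over member clusters, conversion events per read were 0.66, 0.65 and 0.62 with RNase I and 0.50 and 0.53 with RNase T1, beside 0.65, 0.64, 0.61, 0.51 and 0.55 for the clusters of all protein-coding genes. In the same order, 74.7%, 81.8%, 73.3%, 54.9% and 54.5% of member clusters had over 0.5 events per read. For all protein-coding genes it was 76.4%, 75.3%, 69.8%, 54.6% and 59.5%. The share of all genes that failed by conversion alone is not given here.

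In SARS1, more reads lay outside the annotated exons than in them in every library. Clusters in the first intron had 111, 87.6 and 82.0 CPM with RNase I and 129 and 170 with RNase T1, from 89, 207, 55, 149 and 31 reads. The RNase T1 libraries, which had no exonic SARS1 cluster, had the highest intronic values. None of their intronic clusters met both target limits, against 3, 3 and 2 in the RNase I libraries. Conversion events per read over the intronic clusters were 0.65, 0.62 and 0.65 with RNase I and 0.52 and 0.42 with RNase T1. All these clusters lay within 2172 nt, chr1:109215192-109217363, of an intron of 9849 nt, and the block began 38 nt after an exon, chr1:109214547-109215153, of a SARS1 transcript that GENCODE lists without a defined coding sequence. Clusters from all 5 libraries met in 2 stretches of the block, one of them 195 nt long, chr1:109216897-109217091. The summit of the largest RNase T1 1/1 cluster, with 59 reads, was at chr1:109216928-109216953 on the plus strand and is shown because no exonic cluster of SARS1 was found with this nuclease.
SARS1 intron, RNase T1 1/1: ctgttatttcctcataacctttactg

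Among the 37 genes, SARS1 alone had more intronic than exonic reads in all 5 libraries, as did 81 of the 20046 protein-coding genes, or 0.404%. Its mean intronic level of 116 CPM, not divided by length, ranked 38 among all of them. The IgG library had no cluster there.

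**Figure D2:**
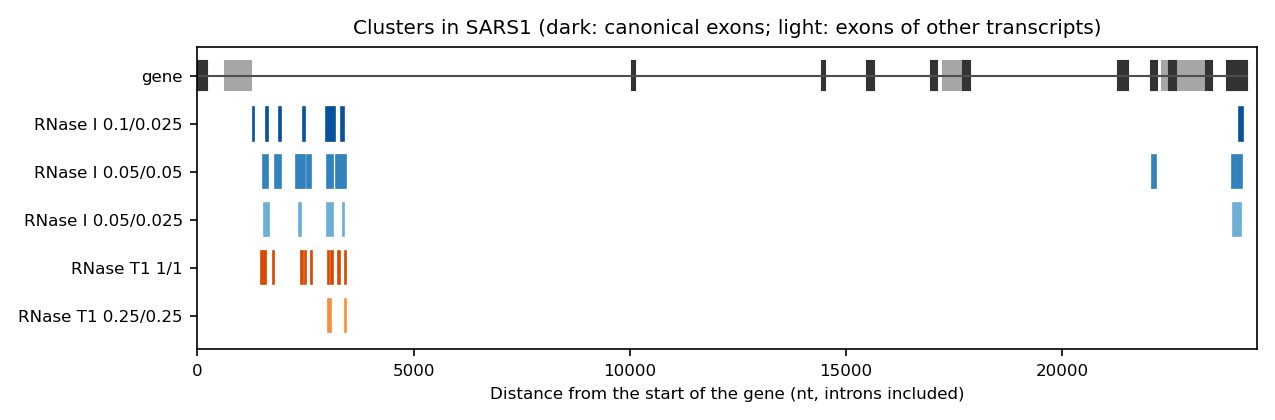
Clusters of the 5 IGF2BP3 libraries along the SARS1 gene (horizontal axis, distance from the gene start in nt with introns included), with canonical exons dark and exons of other transcripts light in the top row. A block of clusters within the first intron appears in all 5 libraries, while clusters at the 3′ end appear with RNase I and not with RNase T1.

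EARS2, the mitochondrial glutamate enzyme, stood apart from its set. It had 124, 202 and 197 CPM with RNase I and 140.0 and 60.3 with RNase T1, the last from 11 reads. It held 44.8% to 81.5% of all mitochondrial synthetase reads of a library. With 27.8 CPM per kb it was above 89.7% of all protein-coding genes, and among the cytosolic enzymes NARS1, KARS1, YARS1 and IARS1 were higher. Its 3′UTR of 3620 nt was the longest of the mitochondrial set, and all its exonic reads lay in clusters touching the 3′UTR. Clusters from all 5 libraries met in 2 stretches, chr16:23523077-23523457 with 327 reads and chr16:23524093-23524256 with 102.

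The next mitochondrial enzymes were lower. MARS2, the methionine enzyme, had 9.96, 33.4 and 5.96 CPM with RNase I and 41.5 and 0 with RNase T1, with the electroeluted libraries on top. RARS2, the arginine enzyme, had 9.96, 17.4, 25.3, 5.18 and 0 CPM, and IARS2 14.9, 26.2, 0, 37.2 and 0. YARS2 had 7.47, 13.5, 0, 14.7 and 0 CPM. Each was a target in 1 or 2 libraries and had no cluster with RNase T1 0.25/0.25, in which 182448 reads were spread over all clusters. With RNase I 0.1/0.025, MARS2 and RARS2 each had 8 reads, 9.96 CPM, just under the limit. AARS2 had reads with RNase T1 alone, while CARS2, HARS2, TARS2 and 4 cytosolic enzymes, FARSA, MARS1, RARS1 and SARS1, had exonic reads with RNase I alone. Of these, CARS2, TARS2, FARSA, MARS1 and RARS1 had them only with RNase I 0.05/0.05, the library with the most cluster reads. The share of all protein-coding genes with reads from 1 nuclease alone is not given here, so this is no result about the members.

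For 17 amino acids a mitochondrial enzyme could be set beside the cytosolic one, with EPRS1 standing for both glutamate and proline and the mean of FARSA and FARSB for phenylalanine. The cytosolic enzyme had more CPM per kb for 12 amino acids and the mitochondrial one for 4, cysteine, glutamate, methionine and arginine. For valine both were at 0. The lowest cytosolic value over the 5 libraries exceeded the highest mitochondrial value for 5 amino acids, asparagine, tyrosine, isoleucine and tryptophan among them. The reverse held for glutamate, where EARS2 had 11.6 to 38.9 CPM per kb and EPRS1 1.53 to 9.40. For the other 11 the ranges overlapped. MARS2 and RARS2 exceeded MARS1 and RARS1 in 4 libraries each, with no reads for either enzyme of the pair in the other library.

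**Figure D3:**
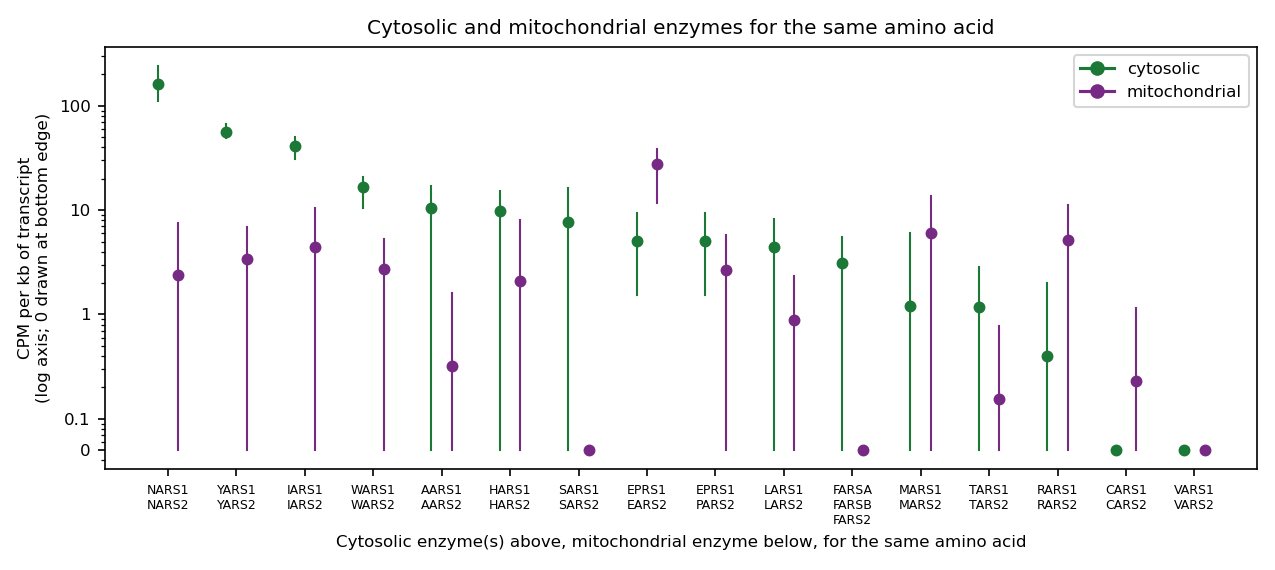
Mean CPM per kb (vertical log axis, 0 drawn at the bottom edge) of the cytosolic and the mitochondrial enzyme for each of 16 amino acids, with lines from the lowest to the highest of the 5 IGF2BP3 libraries. NARS1, YARS1, IARS1 and WARS1 lie above their mitochondrial counterparts without overlap, and EARS2 above EPRS1.

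Of all reads on the synthetase mRNAs, the mitochondrial enzymes had 12.6% (95% Wilson interval 10.8% to 14.6%) with RNase I 0.1/0.025 and 15.98% (13.9% to 18.4%) with 0.05/0.025. In the electroeluted libraries they had 22.2% (20.9% to 23.5%) with RNase I 0.05/0.05 and 20.0% (18.2% to 21.9%) with RNase T1 1/1. With RNase T1 0.25/0.25 they had 6.40% (3.98% to 10.1%). The share was lowest in the library with the fewest reads and highest in the one with the most. The summed level of the cytosolic enzymes moved little, from 1255 to 1289 CPM, while that of the mitochondrial enzymes ranged from 87.7 to 362 CPM.

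The reads were placed on the canonical transcript, counting a cluster as 3′UTR if it touched the 3′UTR and otherwise as coding sequence. Of the 6574 reads on cytosolic enzymes, 73.0% (71.9% to 74.1%) were 3′UTR and 26.9% coding sequence. Of the 1545 reads on mitochondrial enzymes, 88.9% (87.3% to 90.4%) were 3′UTR and 9.26% coding sequence. EARS2 gave 882 of them, and without it the mitochondrial 3′UTR share was 74.2%. All protein-coding genes had 80.9% and 16.7%, so the mitochondrial enzymes were above this background with EARS2 and below it without. These sums weight libraries by their reads. In the single RNase I libraries the cytosolic 3′UTR share was 76.2%, 65.5% and 69.7%, and with RNase T1 it was 85.1% and 92.7%, while all protein-coding genes had 80.7%, 78.9%, 79.4%, 85.3% and 85.7%. The cytosolic enzymes were thus below the background with each RNase I library, about equal to it with RNase T1 1/1 and above it with RNase T1 0.25/0.25, where they had 234 reads.

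**Figure D4:**
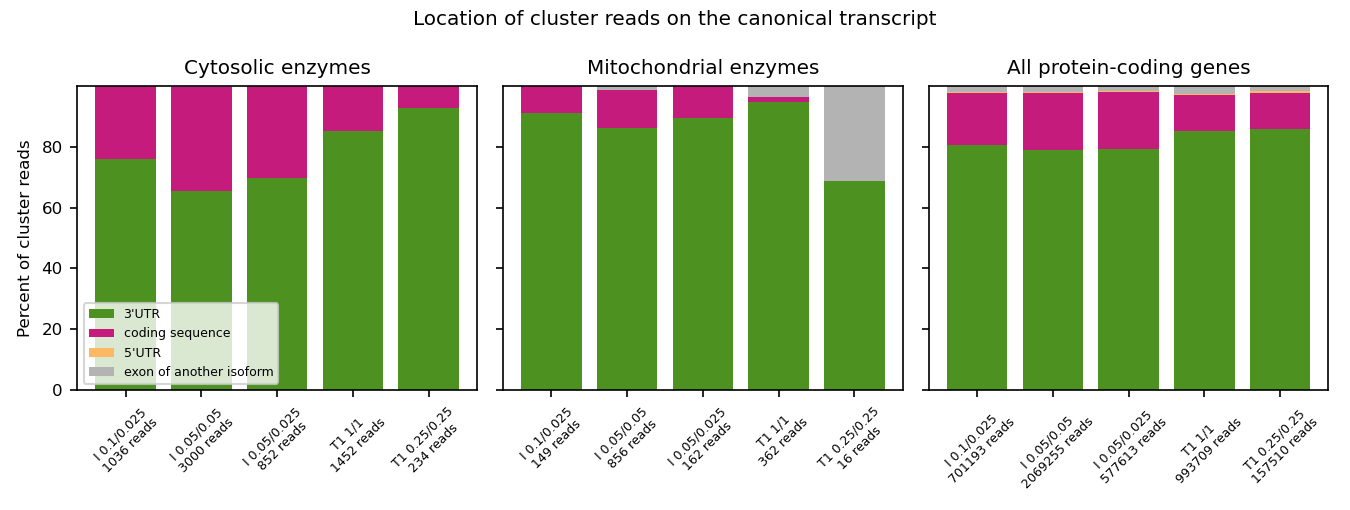
Percent of cluster reads (vertical axis) in clusters touching the 3′UTR, else the coding sequence, else the 5′UTR, else an exon of another isoform, for the cytosolic enzymes, the mitochondrial enzymes and all protein-coding genes in each IGF2BP3 library, with read numbers below the bars. Coding-sequence reads make up 34.3% of the cytosolic enzymes' reads with RNase I 0.05/0.05 and 7.26% with RNase T1 0.25/0.25.

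A few cytosolic mRNAs carried most of the coding-sequence reads. KARS1, the lysine enzyme, had 168, 189 and 245 CPM with RNase I and 86.4 and 93.2 with RNase T1. Both RNase T1 values were below all RNase I values. The counting interval of RNase T1 0.25/0.25, 54.3 to 149 CPM from 17 reads, overlapped that of RNase I 0.1/0.025, 141 to 199 CPM. That of RNase T1 1/1, 70.3 to 105 CPM, did not. The KARS1 3′UTR is 174 nt long, and 73.8% (70.7% to 76.6%) of its 862 reads lay in clusters within the coding sequence, rising to 95.01% when clusters across the stop codon were included. When all annotated transcripts were used in place of the canonical one, 85.4% of the KARS1 reads and 98.8% of the IARS1 reads counted as 3′UTR. Clusters covered 54.3% of its 1791 nt coding sequence with RNase I 0.05/0.05 and 8.99% with RNase T1 1/1. The stretch chr16:75634203-75634288 in the coding sequence held clusters from all 5 libraries. Without KARS1, the cytosolic 3′UTR share was 80.1%, and without NARS1 it was 61.7%.

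FARSB, the beta subunit of the phenylalanine enzyme, had 74.7, 67.7 and 46.2 CPM with RNase I and 16.4 and 0 with RNase T1. All of its 270 reads lay in the coding sequence, although its annotated 3′UTR of 4975 nt is the longest of the 37. QARS1, the glutamine enzyme, which has no mitochondrial counterpart among the members, had 93.4% of its 121 reads in clusters of the coding sequence, 59 of them at chr3:49101351-49101433. By the mode of the cluster the share was 44.6%, and over all annotated transcripts it was 9.92%. Among the mitochondrial enzymes, all 72 reads of RARS2 lay in the coding sequence, as did the 5 reads each of CARS2 and TARS2. Over all annotated transcripts, all reads of these 3 counted as 3′UTR. EPRS1, the joint enzyme for glutamate and proline, had 47.7% of 153 reads there and IARS1 37.1% of 951, or 77.8% and 60.04% with clusters across the stop codon included.

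**Figure D5:**
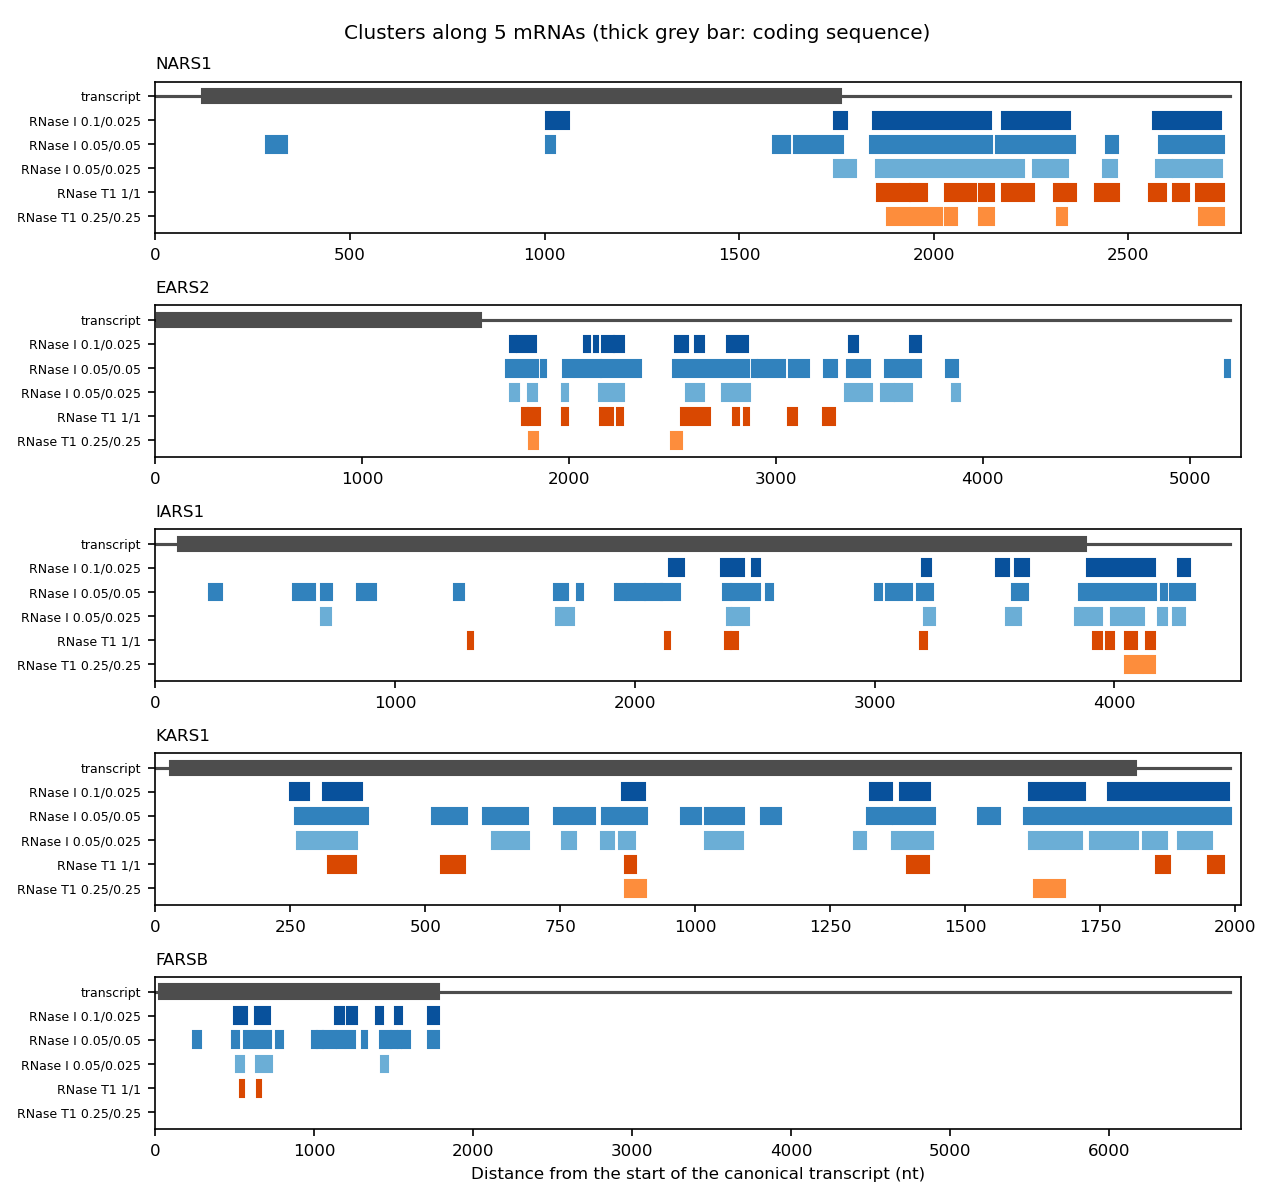
Clusters of the 5 IGF2BP3 libraries along the canonical transcripts of NARS1, EARS2, IARS1, KARS1 and FARSB (horizontal axis, distance from the transcript start in nt), with the coding sequence as a thick bar. Clusters of NARS1 and EARS2 concentrate in the 3′UTR, those of KARS1 run through the coding sequence and those of FARSB stop at its end.

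The electroeluted libraries also differed in how much of a 3′UTR the clusters covered. For all 19 members with 3′UTR clusters in both electroeluted libraries, coverage was broader with RNase I 0.05/0.05, with medians of 37.8% against 12.2%. NARS1 differed least in relative terms, at 71.9% and 60.6%. These libraries had 2362467 and 1157194 cluster reads, and the role of read number in this difference was not tested. With RNase I 0.1/0.025, which had 803490 cluster reads, the order against RNase T1 1/1 varied between members. Of those with 3′UTR clusters in both, most had broader coverage with RNase I 0.1/0.025. KARS1 had 98.3% with RNase I 0.1/0.025 and 32.8% with RNase T1 1/1, while MARS2 had 4.54% and 8.92%. Member clusters had a median length of 51, 59 and 52 nt with RNase I and of 34 and 43.5 nt with RNase T1, and 94.5% and 90.9% of the RNase T1 clusters ended in G, against 9.33%, 15.0% and 14.7% with RNase I. The clusters of all protein-coding genes ended in G in 94.8% and 92.0% with RNase T1. Joined where they overlapped, the member clusters gave 196 stretches, of which 11, or 5.61%, were covered by all 5 libraries. For all protein-coding genes it was 6.71% of 81580. The 11 lay on 8 genes, among them NARS1, YARS1 and EARS2 with 2 each and KARS1, WARS1, GARS1 and IARS1 with 1 each.

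In every library, CATT occurred more densely in the clusters of mitochondrial than of cytosolic enzymes. With RNase I it occurred 15.6, 9.16 and 9.87 times per kb of mitochondrial cluster and 7.29, 6.42 and 7.57 times per kb of cytosolic cluster, and all protein-coding genes had 8.52, 7.53 and 8.38. With RNase T1 1/1 the values were 19.3 and 8.12, beside 11.0 for all genes, from 22 and 19 occurrences. With RNase T1 0.25/0.25 there were 2 and 7 occurrences. The order was the same over 3′UTR clusters alone, at 18.9 and 6.46 per kb with RNase T1 1/1. Without EARS2 the mitochondrial values were 18.6, 10.8, 8.23, 25.5 and 0, so that with RNase T1 0.25/0.25 the order turned. CAGT went the other way, at 5.19, 5.69, 5.92, 3.52 and 8.26 per kb for the mitochondrial and 7.05, 7.34, 7.82, 4.70 and 10.7 for the cytosolic enzymes. All protein-coding genes had 6.67, 6.25, 6.49, 3.38 and 4.81, so both sets were above them with RNase T1. The mitochondrial values with RNase T1 came from 4 and 1 occurrences. Without EARS2 the order of CAGT turned with RNase I 0.05/0.025, at 8.23 and 7.82 per kb, the former from 2 occurrences. The libraries share these stretches of mRNA, so the 5 values are not independent.

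By structural class, 4 of 19 class I (21.1%) and 7 of 18 class II enzymes (38.9%) were targets in at least 3 libraries. The backgrounds were 19.9% of all protein-coding genes and 42.6% of those with a cluster in any library. The class I share was close to the first of these, and the class II share lay between them. The class medians were 4.39 and 2.67 CPM per kb, so the count and the median pointed in different directions. Class I and II enzymes differ in the fold of their catalytic domain. EPRS1, the joint enzyme for glutamate and proline, was counted in class I alone, although the proline enzyme PARS2 was counted in class II. Of the 8 cytosolic enzymes of the multisynthetase complex, 3 (37.5%), KARS1 and IARS1 among them, were targets in at least 3 libraries. The backgrounds were the same 19.9% and 42.6%, and all 8 enzymes had a cluster. QARS1, LARS1 and EPRS1 were targets in 1 or 2. MARS1 had 16.9 CPM and RARS1 4.23 CPM, both with RNase I 0.05/0.05 alone, and neither was a target. The median of the complex enzymes was 5.74 CPM per kb, against 8.69 for the 12 other cytosolic enzymes.

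Of 13 other genes of tRNA charging, 10 had a cluster in at least 1 library, 5 were targets in at least 1 and 2 in at least 3. The shares of all protein-coding genes were 46.7%, 29.5% and 19.9%. DTD2, a deacylase that removes wrongly attached amino acids from tRNA, was a target in all 5, with 63.5, 38.1 and 31.3 CPM with RNase I and 80.4 and 115 with RNase T1. EEF1E1, a scaffold protein of the multisynthetase complex, was a target in 4, with 43.6, 30.1, 85.0, 19.9 and 32.9 CPM. AIMP1, a further scaffold, was a target with RNase T1 1/1 alone, at 110 CPM, and had 33.6, 32.6 and 23.9 CPM with RNase I. GATC and QRSL1, subunits of the mitochondrial amidotransferase that makes glutaminyl-tRNA, were targets in 2 and 1 libraries, and the third subunit, GATB, had no cluster, as had AIMP2 and AARSD1.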

How the data were processed

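The data were 5 libraries with IGF2BP3 antibody and 1 with IgG. The authors removed duplicates by their molecular identifiers (UMI-tools 1.1.1), trimmed with Trimmomatic 0.30 to between 18 and 45 nt, mapped to GRCh38.p13 (Bowtie 0.12.7, up to 3 mismatches) and ran PARalyzer on every library separately. The deposited values are raw counts of reads and of conversion events per cluster. The handling of reads with several alignments is not given in the sources used here.

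Clusters were assigned to GENCODE 44 genes by same-strand exon overlap of at least 1 nt. Values were calculated in Python 3.11.15 using scipy 1.17.1, pandas 2.3.3 and numpy 2.4.6, and plotted using matplotlib 3.10.9. Shares have 95% Wilson intervals and CPM exact Poisson intervals. No interval or limit was set on a gene without clusters, since the files list called clusters alone. Calls were checked on simulated clusters. Features follow the Ensembl canonical transcript, because transcripts subject to nonsense-mediated decay label coding exons as 3′UTR. The members and lists were chosen with earlier results of these data known. Named were the 5 members of each set with the most CPM per kb, those called in all 5 libraries, those without clusters and those called with 1 nuclease only. Others were named where a count needed them, after their values were seen. Some items are counted in the sums but not reported singly here. Alternatives changed the call limits, transcript length, feature order and libraries.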

Additional observations from a re-analysis of the deposited data

Results flagged for a closer look

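Signal outside the exonic clusters was found in the SARS1 intron. This signal entered no count of targets, and no RNase T1 cluster there met both target limits. It reached 111 CPM with RNase I 0.1/0.025, 87.6 CPM with RNase I 0.05/0.05, 82.0 CPM with RNase I 0.05/0.025, 129 CPM with RNase T1 1/1 and 169.9 CPM with RNase T1 0.25/0.25, while the IgG library had no cluster there.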

How the results depend on the processing

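No paired analysis was possible because each condition had 1 library. Each comparison was recomputed with 1 setting changed, and 75 of the values that answer a comparison stayed close to those reported while 32 moved. Of the cytosolic enzymes, 10 were targets in at least 3 libraries, but 5 with at least 20 reads required, 6 with more than 0.75 events per read and 0 when conversions had to exceed 0.5 of conversion plus non-conversion events, a limit that left 0% of all protein-coding genes as well. For the mitochondrial enzymes the 1 became 4 at 5 CPM and 0 under the same 3 stricter limits. Targets in all 3 RNase I libraries went from 10 to 5, 3 and 0 under those limits and to 5.9 after thinning to the smallest library. Targets in both RNase T1 libraries went from 5 to 1 at 20 CPM, with 20 reads or with 0.75 events, to 8 with 0.25 events and to 0 by share. Leaving out each library gave 5 to 14 of the last. The 14, without RNase T1 0.25/0.25, were the targets of RNase T1 1/1 alone, which is a looser rule. The share of all protein-coding genes called in at least 3 libraries moved as well. It went from 19.9% to 11.4% with at least 20 reads, 7.16% with more than 0.75 events and 16.4% after thinning. For the calls in all RNase I or both RNase T1 libraries, the shares of all genes under changed settings are not given here.

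The ratio of median levels, 2.95, became 5.25 over merged exons and 15.4 for 3′UTR clusters over 3′UTR length. It became 3.77 without length correction, 3.13 without EARS2 and 2.62 without GARS1 and KARS1. Leaving out 1 library gave 2.22 to 3.81. The cytosolic 3′UTR share, 73.0%, became 62.7% with coding sequence first, 66.7% by cluster mode, 77.8% as a mean of libraries, 90.9% over all transcripts, 80.1% without KARS1, 61.7% without NARS1 and 69.6% to 79.3% leaving out 1 library. The mitochondrial share, 88.9%, became 86.1% as a mean of libraries, 96.4% over all transcripts, 74.2% without EARS2 and 87.2% to 92.2% leaving out 1 library. The use of all transcripts and the single genes left out were chosen after seeing the data. The causes of these shifts were not tested. With RNase T1 0.25/0.25, 10 CPM corresponded to 1.82 reads, so calls there can rest on few reads.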
